A study of Mus musculus with 6 samples.

Results

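Chuk, Ikbkb, Ikbkg, Ikbke, Tnfaip3, Tnip1, Cyld, Birc2, Birc3 and Traf1 encode kinases of the NF-kB pathway and the proteins that build, read or remove the ubiquitin chains around them. The 10 genes were taken by the gene symbol that the platform annotation gives each probe. Probes named for 9 of them were found, out of 19057 genes with a named probe, and no probe was named for Chuk, the gene of the kinase IKK alpha. The 9 genes had 24 probes. All 9 had a probe that passed the detection filter, which 8205 genes passed in all, and 15 of the 24 probes passed it.

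The cells were primary macrophages grown from the bone marrow of wild-type c57Bl6/J male mice, 10 weeks old. One group was treated for 12 h with 5 µM RI-BPI in MSF media, a retro-inverso peptide designed against the contact of the repressor Bcl6 with its corepressors, and the other with 5 µM of a control peptide. There were 3 arrays per peptide, which the labels call technical replicates. Nothing says that they came from separate cultures or mice, so p-values here cover only the spread of these arrays, which may be technical.

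In the canonical NF-kB pathway, receptors for TNF, IL-1 or bacterial products gather TRAF adaptors and ubiquitin ligases. The chains these ligases make are bound by NEMO, the regulatory subunit of the IkB kinase complex, whose catalytic subunits IKK alpha and IKK beta then mark the IkB inhibitors for destruction. The deubiquitinases A20 and CYLD take the signal down again, and A20 is itself a product of NF-kB in macrophages, which closes a feedback loop.

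Signals are mean bead intensities of Illumina bead arrays as deposited, and changes are RI-BPI minus control on a log2 scale after background correction and quantile normalization. Each gene is represented by its brightest detected probe. A change was called at an adjusted p under 0.05 in limma, a moderated linear model, with Benjamini-Hochberg adjustment over all 8205 genes. Median signals per array lay between 45.8 and 47.4, and 12931 to 13843 of 45281 probes were detected per RI-BPI array, against 13866 to 14357 per control array. Arrays of the same peptide correlated at r = 0.992 to 0.996 across genes and arrays of different peptides at 0.945 to 0.948. Member probes were read by 21 to 70 beads per array, and the bead standard error at the brightest probes was 4.58% to 12.6% of the signal.

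Of the 9 measured members, 4 rose with RI-BPI, 2 fell and 3 were not called. Tnfaip3, Tnip1, Ikbkg and Traf1 were the genes that rose, and Ikbke and Ikbkb were those that fell. Over all 8205 genes 61.3% were called, 30.7% higher and 30.6% lower, so 6 called of 9 is near the share of all genes and the count is no result about these genes. On normalized values the groups did not overlap for 6 of the 9 members, against 64.9% of all genes. The changes of 4 members, 3 higher and 1 lower, were called and at least 1.5-fold, against 29.9% of all genes. The median change of the 9 was 0.21, with a median over all genes of 0.01. This middle value is that of Birc3, whose probe lay near background and which was not called. The median absolute change was 0.50 against 0.37 over all genes.

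**Figure D1:**
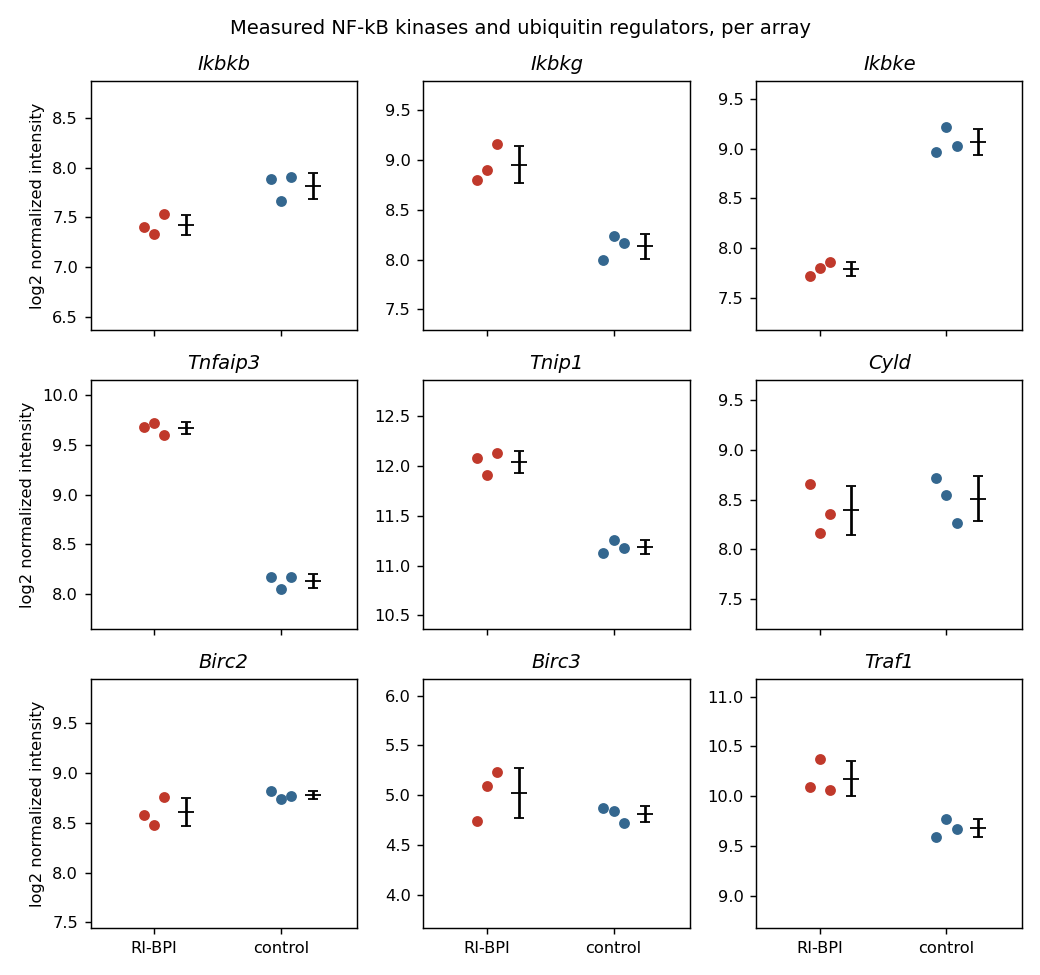
Log2 normalized intensity (vertical axis, a range of the same width in each panel) of the 9 measured members on the 3 RI-BPI arrays (red) and the 3 control arrays (blue). Points are arrays and bars show the mean ± SD. The groups do not overlap for Ikbkb, Ikbkg, Ikbke, Tnfaip3, Tnip1 and Traf1.

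The gene of the regulatory subunit NEMO rose, while the measured kinase genes Ikbkb and Ikbke fell. Ikbkg, which encodes NEMO, had signals of 496, 495 and 564 on the RI-BPI arrays, against 296, 347 and 307 on the control arrays. All RI-BPI arrays lay above all control arrays. The change was 0.82 ± 0.12 (SE, n = 3 arrays per group), a 1.77-fold rise with a limma adjusted p of 6.18e-06. A second detected probe of Ikbkg had signals of 214, 194 and 172 with RI-BPI, against 104, 116 and 98.6 with control peptide. This probe was also higher on every RI-BPI array, by 1.20 ± 0.11 (adjusted p = 3.46e-08 over all 13975 detected probes). Further probes of the gene, one annotated to the same transcript and one to a cDNA clone, were not detected on any array.

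Ikbkb encodes IKK beta, the catalytic subunit that does most of the IkB phosphorylation in canonical signalling. Its signals were 204, 183 and 197 with RI-BPI, against 278, 243 and 259 with control peptide. All RI-BPI arrays were below all control arrays. Ikbkb fell by 0.39 on the log2 scale, with an SE of 0.11, which is 1.31-fold lower (limma adjusted p = 0.00502). This rests on 1 detected probe, read by 22 to 55 beads per array. Its bead standard error was 5.92% to 12.6% of the signal, the upper value being the highest among the brightest member probes. Further probes of Ikbkb, annotated to cDNA clones, were not detected on any array.

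Ikbke encodes IKK epsilon, a relative of the IkB kinases that together with TBK1 phosphorylates IRF3 in the induction of type I interferon. It had signals of 246, 246 and 242 with RI-BPI, against 546, 643 and 528 with control peptide. The RI-BPI arrays were nearly level with each other and far below the lowest control array. The log2 change of -1.27 ± 0.11 is a 2.42-fold lower level (limma adjusted p = 8.20e-09), and ranks 214 among the 8205 genes counted from the largest decrease. Tbk1, its closest partner kinase, changed by 0.14 ± 0.12 and was not called (adjusted p = 0.314).

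Ikbkg, Ikbkb and Ikbke were also set against each other within each array, on the normalized log2 values. The level of such a difference depends on the probes, and only its shift between peptides can be read. Ikbkg minus Ikbkb was 1.40, 1.57 and 1.62 on the RI-BPI arrays and 0.11, 0.57 and 0.27 on the control arrays, a shift of 1.21 on the log2 scale. Ikbkg minus Ikbke shifted by 2.09, and Ikbkb minus Ikbke by 0.88. In all 3 pairs the RI-BPI arrays lay apart from the control arrays. The shifts restate the changes of the single genes, so they are no further support. For the pairs with Ikbkg the separation was fixed, because the single genes already separated the groups in opposite directions. A two-sided exact permutation test of 3 against 3 arrays cannot go below p = 0.1, which each pair reached, with an adjusted p of 0.225 over the 9 within-array comparisons made.

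**Figure D2:**
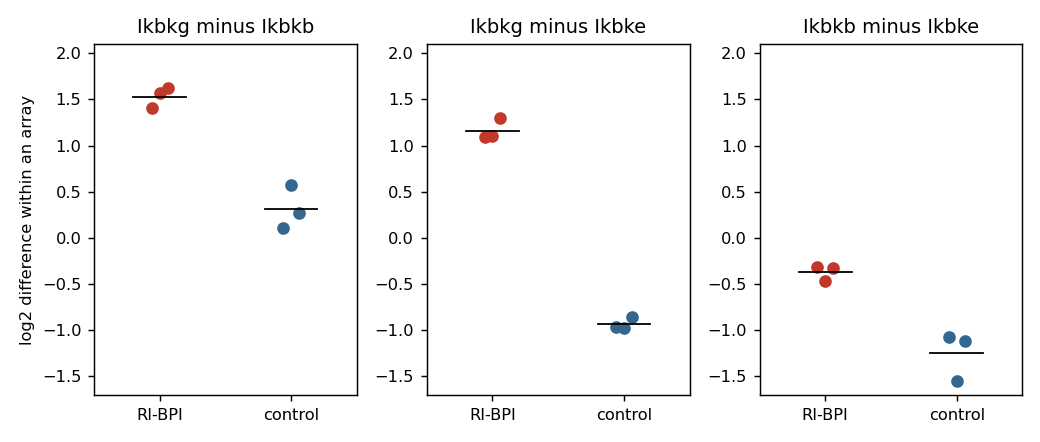
Log2 difference between 2 of the genes Ikbkg, Ikbkb and Ikbke within each array (vertical axis). Points are the 3 RI-BPI arrays (red) and the 3 control arrays (blue), with group means as lines. The shift between peptides is 1.21 for Ikbkg minus Ikbkb, 2.09 for Ikbkg minus Ikbke and 0.88 for Ikbkb minus Ikbke.

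A20 and its partner rose. Tnfaip3 encodes A20, the ubiquitin-editing enzyme that restrains signalling from TNF and Toll-like receptors. Its signals were 892, 867 and 750.3 with RI-BPI, against 331, 310.0 and 307 with control peptide. The gap between the groups was wider than the range within either. The change was 1.53 ± 0.10, a 2.89-fold rise with a limma adjusted p of 3.20e-10, and ranks 128 among all 8205 genes counted from the largest increase. The 1 probe named for Tnfaip3 was detected on all arrays.

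Tnip1 encodes ABIN1, which binds ubiquitin chains and brings A20 to NEMO. Its brightest probe had signals of 4558, 3748 and 4018 with RI-BPI, against 2344, 2555 and 2272 with control peptide. All RI-BPI arrays were above all control arrays, and the change was 0.85 ± 0.11, or 1.81-fold (limma adjusted p = 1.37e-06). A second probe, with signals of 783, 688 and 697 with RI-BPI, against 499, 433 and 489 with control peptide, rose by 0.68 ± 0.11 (adjusted p = 5.08e-05). A further, dim probe gave no call, with 68.9, 68.3 and 61.1 with RI-BPI, against 64.8, 77.3 and 66.9 with control peptide, and a change of -0.02 ± 0.12 (adjusted p = 0.913). The probes of Tnip1 therefore disagreed: averaged over the 3 detected probes its change was 0.50, still called (adjusted p = 0.000237). In each array the brightest probe minus the dim one was 6.73, 6.53 and 7.03 with RI-BPI, against 5.98, 5.76 and 5.94 with control peptide (exact permutation p = 0.1, adjusted p = 0.225).

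Cyld encodes a deubiquitinase that removes linear and lysine-63-linked chains from NEMO, TRAF and RIPK1 complexes. Its brightest probe had signals of 452, 309 and 330.0 with RI-BPI, against 466, 421 and 326 with control peptide. The groups overlapped. The change was -0.12 ± 0.14 (limma adjusted p = 0.463), with a 95% confidence interval from -0.40 to 0.16. A change of the size seen for Tnfaip3 lies outside this interval, but a fall of the size called for Ikbkb, -0.39, lies within it. A second probe gave -0.13 ± 0.12 (adjusted p = 0.358).

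The promoter stretches below are those of every member whose promoter held the consensus kB motif, the 10-letter pattern bound by NF-kB dimers. Of these genes, those of A20 and ABIN1 rose while Cyld was not called. RefSeq promoter entries (GRCm38.p6, 250 bases before to 50 after a start) were found for 9 of the 10 genes, with 14 promoters in all. Of the 14 promoters, 3 held the motif on either strand, with overlapping matches joined, 1 promoter each of Tnfaip3, Tnip1 and Cyld. Among all 32851 promoters the share was 4.51%. Each stretch runs 5′ to 3′ along the gene and ends at or before the start, and capitals mark the motif.
Tnfaip3 (chr10:19015411-19015570, minus strand): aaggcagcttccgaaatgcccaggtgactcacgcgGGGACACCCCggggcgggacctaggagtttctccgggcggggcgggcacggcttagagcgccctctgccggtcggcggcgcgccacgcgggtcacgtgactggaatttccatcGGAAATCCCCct
Tnip1 (chr11:54962952-54963033, minus strand): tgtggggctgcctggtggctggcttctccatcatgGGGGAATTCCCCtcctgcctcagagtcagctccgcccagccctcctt
Cyld (chr8:88696838-88696917, plus strand): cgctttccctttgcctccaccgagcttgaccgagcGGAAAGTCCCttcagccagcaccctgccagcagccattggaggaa

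Tnfaip3 held 2 matches, one from 125 to 116 bases and the other from 12 to 3 bases before the start. In Tnip1 the overlapping matches joined into GGGGAATTCCCC, 58 to 47 bases before the start, which reads the same on both strands. The match in Cyld, 155 to 146 bases before the start, reads GGGACTTTCC on the other strand, the letters of the immunoglobulin kappa enhancer site from which NF-kB took its name. The other listed promoter of Tnfaip3 and the promoters of Chuk, Ikbkg, Ikbke, Birc2, Birc3 and Traf1 held no match in this window. Among the measured genes with a match in a promoter, Tnfaip3 and Tnip1 were called higher and Cyld was not called. Of those without one, Ikbkg and Traf1 were called higher, Ikbke was called lower, and Birc2 and Birc3 were not called. Ikbkb, called lower, had no promoter entry.

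The IAP ligases were not called. Birc2 encodes cIAP1, which adds ubiquitin to RIPK1 and, in resting cells, keeps the kinase NIK low. Its brightest probe had signals of 432, 379 and 433 with RI-BPI, against 497, 479.9 and 453 with control peptide. The signals as deposited did not overlap, but after normalization the groups did, with a change of -0.17 ± 0.11 (limma adjusted p = 0.185) and a 95% confidence interval from -0.40 to 0.06. A dimmer probe gave -0.03 ± 0.10 (adjusted p = 0.817). Of the other probes, one was detected on 2 control arrays and no RI-BPI array and the last on none.

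Birc3 encodes cIAP2, the inducible relative of cIAP1 and a known NF-kB product. Its 1 named probe lay near background, with signals of 55.4, 61.2 and 64.0 on the RI-BPI arrays and 57.9, 58.6 and 54.7 on the control arrays. It was detected on 3 RI-BPI arrays and 2 control arrays. The change of 0.21 ± 0.12 was not called (limma adjusted p = 0.141), with a 95% confidence interval from -0.04 to 0.47. Without RI-BPI replicate 1 it was 0.36 and called (adjusted p = 0.0153), and over all alternatives its adjusted p ranged up to 0.448.

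Traf1 encodes an adaptor that lacks the RING domain of the other TRAF proteins, binds TRAF2 and cIAPs, and is induced by NF-kB. Its brightest probe, annotated to a cDNA clone, had signals of 1187, 1359 and 1024 with RI-BPI, against 823, 935 and 810.0 with control peptide. The RI-BPI arrays were all higher, although the lowest of them was close to the highest control array. The change was 0.50 ± 0.11, or 1.41-fold (limma adjusted p = 0.000914). The probe annotated to the RefSeq transcript had signals of 1045, 804 and 944 with RI-BPI, against 505.0, 525 and 506 with control peptide, and rose by 0.92 ± 0.12 (adjusted p = 1.64e-06). Both probes rose, and the difference between them did not separate the groups (exact permutation p = 0.3, adjusted p = 0.386).

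**Figure D3:**
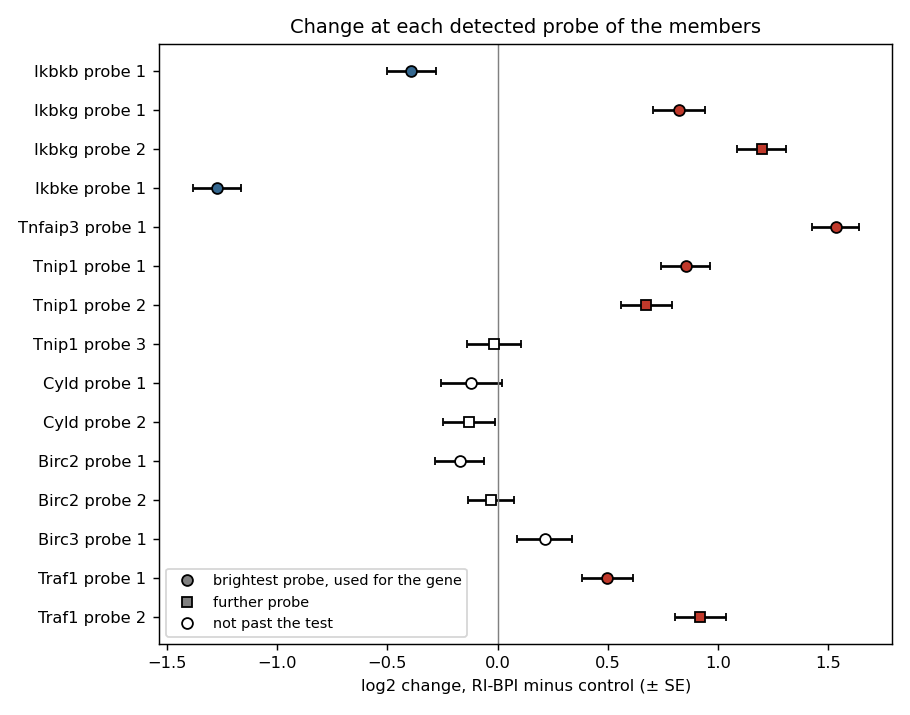
Log2 change ± SE (horizontal axis, RI-BPI minus control) at the 15 detected probes of the 9 measured members, numbered by brightness within each gene. Red and blue points passed the test as higher and lower, and open points did not. Of the 15, 7 were higher and 2 lower.

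At the level of probes, 7 of the 15 detected member probes rose, 2 fell and 6 were not called, against 29% higher, 30.5% lower and 59.5% called in all among the 13975 detected probes. The groups did not overlap at 9 of the 15, against 63.3% of detected probes. The 8 member probes that were not detected on any array had mean signals between 38.5 and 48.0. No detected probe of a member was called in the direction opposite to another probe of the same gene. Of the 6 comparisons of the brightest probe with a further one, 1 separated the groups, that of the dim Tnip1 probe.

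Genes upstream of the kinases moved both ways. Of 9 measured upstream kinases and their subunits, 2 rose, 2 fell and 5 were not called (44.4% called, against 61.3% of all genes). Tab3, a ubiquitin-binding subunit of the TAK1 kinase complex, rose by 0.86 ± 0.11, and Tab1, another subunit, by 0.35 ± 0.12. Map3k8, which encodes the ERK-activating kinase TPL2, and Map3k14, which encodes NIK, fell by 0.45 each with SEs of 0.11 and 0.12. The TAK1 gene Map3k7 itself gave 0.16 ± 0.12 and was not called (adjusted p = 0.261). Tab1 is the weakest of these calls: other probes of it gave -0.20 and 0.38, and without RI-BPI replicate 1 (adjusted p = 0.059) or without control replicate 3 (0.148) only 1 of the 9 genes rose.

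Adaptor genes moved both ways as well. Of 8 measured TRAF and scaffold adaptors, 4 rose, 1 fell and 3 were not called (62.5% called). Malt1, the paracaspase of the CARD-BCL10-MALT1 complex, rose by 1.70 ± 0.11 (3.26-fold). Traf2, the adaptor that holds cIAPs at the TNF receptor, rose by 0.80 ± 0.10 (0.53 with no background correction), Traf6, the ligase of IL-1 and Toll-like receptor signalling, by 0.77 ± 0.11, and Tank, a TRAF-binding scaffold of TBK1 and IKK epsilon, by 0.75 ± 0.12. Other probes of Traf6 gave 0.43 and 0.96. Another probe of Tank gave 0.01, and the mean of its probes 0.39 (adjusted p = 0.00758). Tradd, the TNF receptor adaptor and the member of this list that fell, was named after its value was seen. Its change was -0.58 ± 0.10, and another probe gave 0.16, of opposite sign. Without RI-BPI replicate 2 the count of falls was 3.

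Other ubiquitin enzymes and readers also moved both ways. Of 15 measured, 6 rose, 3 fell and 6 were not called (60% called). Otud7b, which encodes the deubiquitinase Cezanne, rose by 1.42 ± 0.10 (2.67-fold), with 1.10 at another probe. Tax1bp1 and Rnf11, which encode subunits of the A20 ubiquitin-editing complex, rose by 1.12 ± 0.12 and 0.59 ± 0.11. Other probes of Rnf11 gave 0.17 and 0.56, and the mean of its probes 0.44. Ube2v1, the partner of Ube2n in making lysine-63-linked chains, fell by 1.03 with an SE of 0.13, while Ube2n was at -0.14 ± 0.11 and not called (adjusted p = 0.264). The genes of the linear ubiquitin ligase were named after their values were seen. The catalytic subunit Rnf31 was at -0.36 ± 0.12 and Rbck1 at -0.42 ± 0.15, with overlapping groups for Rbck1. Sharpin was at -0.03 ± 0.11 and not called (adjusted p = 0.847). Without control replicate 3 the count of falls in this list was 1, and with median centring of the arrays the count of rises was 3.

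All 10 measured NF-kB subunit and IkB genes were called, 9 higher and 1 lower, with a median of 0.61, against 61.3% called of all genes. The list held 11 genes, and the subunit gene Nfkb1 had no probe named for it alone. With median centring, no filter or the mean of kept probes, and without RI-BPI replicate 1 or 2 or control replicate 1 or 3, 8 were higher and 1 lower. This list was chosen with its earlier results known, so its direction is no independent support. Rel, the gene of c-Rel, rose by 1.82 ± 0.12 (3.54-fold; 1.20 with a background offset of 50), Nfkbib, which encodes IkB beta, by 0.96 ± 0.13, and Nfkbiz, which encodes the nuclear IkB zeta, by 0.80 ± 0.12. Nfkbie, which encodes IkB epsilon, fell by 0.93 with an SE of 0.12. The weakest call was Nfkbia, another IkB gene, named after its value was seen. Its change was 0.31 ± 0.12 (limma adjusted p = 0.0396), with overlapping groups and 0.18 at another probe.

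**Figure D4:**
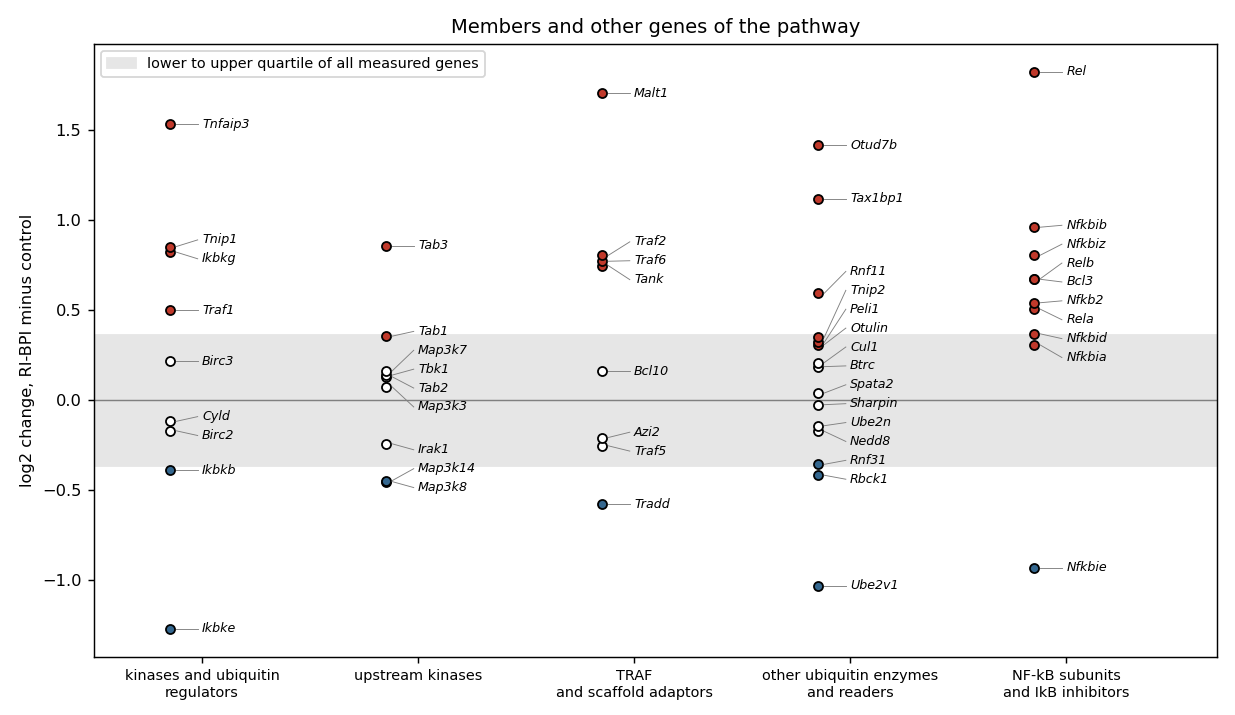
Log2 change (vertical axis, RI-BPI minus control) of each measured gene in the set of kinases and ubiquitin regulators and in the other pathway lists. Red points passed the test as higher, blue points as lower and open points did not, and the grey band spans the lower to the upper quartile of all 8205 genes, from -0.37 to 0.36. All 10 measured subunit and IkB genes are filled, 9 above 0 and 1 below.

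By root mean square difference of mean-centred log2 values over the 6 arrays, the genes most like Tnfaip3 were Atg2a (0.04), Prss46 (0.05) and Cnppd1 (0.06), with changes of 1.54, 1.47 and 1.59. The genes most like Ikbke were Dcxr (0.04), Arhgap4 (0.05) and Tmem176b (0.06), with changes of -1.23, -1.31 and -1.17. None of these is among the members. With 2 groups of 3 arrays this likeness mostly reflects changes of similar size.

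The label of the cells was checked on marker genes. All 7 macrophage markers with a named probe passed the detection filter, and 6 were detected on all 6 arrays. Their summed signal was 42353 to 47829 on RI-BPI arrays, against 48396 to 53547 on control arrays, and 4 of the 7 fell, while Csf1r, Lyz2 and Cd14 were not called. Another detected probe of Csf1r gave -0.96, against -0.09 at the brightest. The largest of these changes was in Fcgr1, at -1.73 ± 0.11, and Itgam was detected on all 3 control arrays and on no RI-BPI array (at least 1.62-fold lower). No T cell, B cell or fibroblast marker of 5, 2 and 5 with a probe passed the filter, and of 5 neutrophil markers S100a8 did, higher by 0.36 ± 0.11. The summed signals were 229 to 232 with RI-BPI and 221 to 225 with control peptide for T cell markers, 88.0 to 93.2 and 91.0 to 96.6 for B cell markers, 229.6 to 234 and 230.3 to 239.7 for fibroblast markers, and 622 to 669 and 546 to 562 for neutrophil markers. The part of the macrophage marker change in the values of the members was not tested, and in bulk RNA fewer cells of a type and less RNA per cell cannot be told apart.

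The 6 calls among the members held under all 15 other settings of background, scaling, filter, probe choice and arrays. Over these settings the change of Tnfaip3 ranged from 1.42 to 1.56, of Ikbke from -1.33 to -1.16, of Ikbkg from 0.72 to 1.01, of Tnip1 from 0.50 to 0.92, of Traf1 from 0.40 to 0.71 and of Ikbkb from -0.48 to -0.33. Ikbkb had the highest adjusted p of the called members in any setting, 0.0278.

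**Figure D5:**
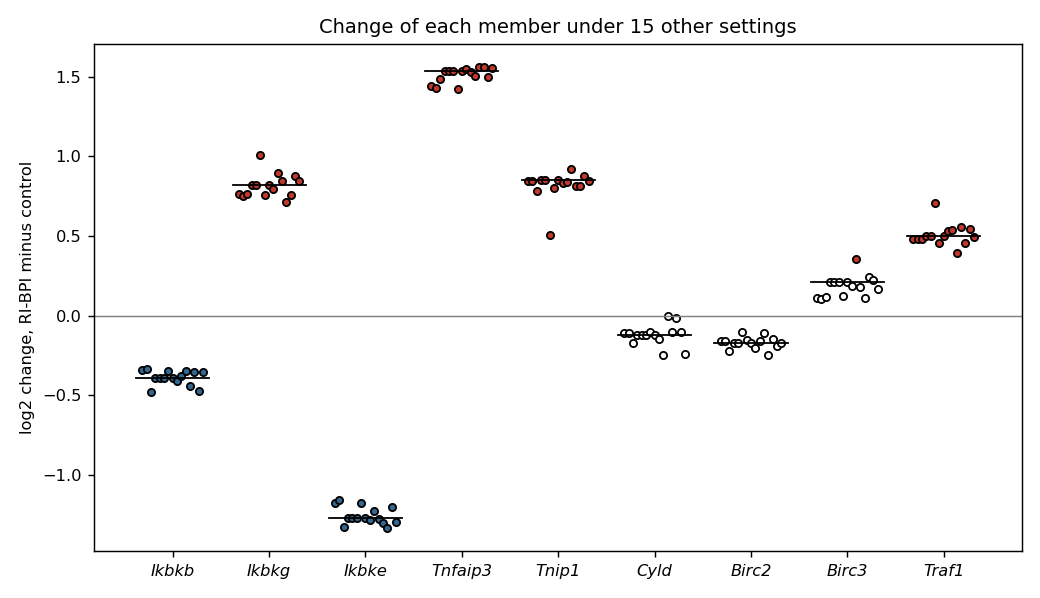
Log2 change of each measured member (vertical axis, RI-BPI minus control) under 15 other settings, among them other background corrections, scalings, filters, the deposited normalized table and leaving out each array. Red and blue points passed the test as higher and lower, open points did not, and lines mark the values reported. Tnfaip3 stays between 1.42 and 1.56 and Ikbke between -1.33 and -1.16.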

How the data were processed

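Per the file headers, the authors deposited mean bead intensity per probe and array without normalization, a detection p-value, the standard error of bead intensities and the count of beads. The submitters' processing notes name GenomeStudio without a version. A second deposited table of normalized intensity, of unstated method, served as an alternative. Slides and scan dates are not given in the sources used here.

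Of 45281 probes, 34885 had 1 gene symbol in the platform annotation, 18 several and 10378 none. Background was corrected with normexp in limma (version 3.58.1, R version 4.3.3) from the detection p-values with an offset of 16, then quantile normalization and log2. Probes detected at p under 0.01 on at least 3 of 6 arrays were kept, 13975 in all, and the brightest kept probe stood for a gene. RI-BPI was compared with control by lmFit and eBayes, called at an adjusted p under 0.05 over 8205 genes or, for probes, over 13975 probes. A larger offset makes the changes of dim probes smaller. Where a group was undetected on all its arrays, the fold is a lower bound, against the higher of the probe's value and the lowest detected value per array.

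Named were all members, up to 4 called genes with the largest absolute change and no overlap per pathway list, and the 3 genes most like the largest rise and fall. Genes that stand outside this rule were named after their values were seen, among them Tbk1, Map3k7, Ube2n and the marker genes. The members and lists were chosen with earlier results of these data known. In the other pathway lists, Ripk1, Ripk2, Irak4, Traf3, Tifa and Tnip3 had no probe named for them alone.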

Additional observations from a re-analysis of the deposited data

How the results depend on the processing

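Each result was recomputed with no background correction, an offset of 50, median centring, no filter, a filter on detection on all 3 arrays of a group, the mean of kept probes, the deposited normalized table, array weights, a replicate block, and without each array in turn. Of 459 values of single genes and probes under alternatives, 453 kept their side of the threshold. Of these, 3 changed sign, all at the dim Tnip1 probe, which was not called in any setting and ranged from -0.15 to 0.08. Those that crossed the threshold were Birc3, called only without RI-BPI replicate 1, and Tab1, not called under 5 alternatives. Counts of called members stayed at 4 higher and 2 lower, except 5 higher without RI-BPI replicate 1.

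Counts in the pathway lists moved by over 1.5 times as follows, and the cause was not tested. With median centring 3 other ubiquitin enzymes rose in place of 6, 2 adaptors fell in place of 1 and 1 upstream kinase rose in place of 2. With no filter 1 upstream kinase rose, and with the mean of kept probes 1 upstream kinase rose and 2 adaptors fell. Leaving out 1 array gave 1 to 3 upstream kinases higher, 1 to 3 adaptors lower and 1 to 3 other ubiquitin enzymes lower.

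The shared replicate numbers did not pair the arrays: deviations of same-numbered arrays correlated at 0.02, 0.002 and 0.03. With the replicate block 4 members were higher and 2 lower, and 61.7% of genes were called in place of 61.3%. Median centring moved the median of all genes to -0.08. Traf2 fell short of its main value by over 1.5 times at 0.49 with an offset of 50, 0.53 with no background correction and 0.53 in the deposited normalized table, and stayed called. Signal near background limits Birc3 and the dim Tnip1 probe.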
